A study of Mus musculus with 4 samples.

Results

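The response to DNA damage and the p53 pathway were followed through 8 genes in the endocrine and non-endocrine cells of mouse islets exposed to cytokines. These were the rows of the 31053-gene count matrices with the symbols *Cdkn1a*, *Mdm2*, *Gadd45a*, *Gadd45b*, *Gadd45g*, *Ccng1*, *Trp53inp1* and *Sesn2*, and every symbol was found once. Islets came from adult male C57BL/6 mice (C57BL6/J in the study's methods), were pooled over animals, divided, cultured without cytokine (untreated) or in IL-1β, IFN-γ or IL-1β and IFN-γ together ex vivo for 6 h, and dissociated to single cells only afterwards. The labels give no time for the untreated islets. Single-cell RNA-seq counted the 3′ ends of transcripts as unique molecular identifiers (UMIs), with 1 library for each of the 4 conditions. Each difference between conditions is therefore a difference between 2 libraries, has no replicate check, and was not tested.

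After removal of barcodes with fewer than 200 or more than 4000 detected genes, or with more than 12% mitochondrial UMIs, 1521 untreated, 2018 IL-1β-treated, 2122 IFN-γ-treated and 1810 doubly treated cells remained of 3486, 2911, 3694 and 2480 barcodes. The untreated library was the deepest, with a median of 15454 UMIs per kept cell against 7462.5 after IL-1β, 9615 after IFN-γ and 11123.5 with both, and only 4 kept barcodes occurred in more than 1 library. Cells were placed in classes by their hormone transcripts or by markers of other islet cells, which gave 4988 β-cells, 878 α-cells, 451 δ-cells, 141 pancreatic polypeptide (PP) cells, 106 endothelial cells, 132 macrophages, 72 mesenchymal cells, 49 ductal cells and 50 acinar cells. The defining markers were present, since each of 8 β-cell, 8 α-cell and 5 δ-cell markers was detected in at least 10% of the cells of its class. A level is the sum of a gene's UMIs in a class and library per 1000000 UMIs of that class and library (CPM). Intervals in brackets are exact 95% intervals that cover counting error only, not differences between mice, cultures or libraries. A gene is called higher or lower when its log2 ratio of CPM + 1 is at least 1 in size and its mean over the 4 libraries is at least 5 CPM. All 8 genes passed that minimum in β-, α- and δ-cells.

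The tumor suppressor p53 is a transcription factor that is held at low levels by continual degradation and is stabilized when DNA is broken or otherwise damaged. Its targets act at several steps. *Cdkn1a* encodes p21, which blocks cyclin-dependent kinases and so arrests the cell cycle. *Mdm2* encodes the ubiquitin ligase that sends p53 to degradation and closes a negative feedback loop, and *Ccng1* encodes cyclin G1, a p53 target that acts with a phosphatase on Mdm2. *Gadd45a*, *Gadd45b* and *Gadd45g* encode small stress sensors that bind MAP kinase kinases and cell cycle proteins. *Gadd45a* is the p53-responsive member of the family, whereas *Gadd45b* is a known NF-κB target. *Trp53inp1* encodes a stress-induced protein that acts with p53 in the nucleus and serves in autophagy, and *Sesn2* encodes sestrin 2, which restrains mTORC1 and is also a target of the integrated stress response. Cytokine-treated islets are a common setting for these genes, since IL-1β leads β-cells to make nitric oxide, which damages DNA. The study holds, however, that little nitric oxide is present after 6 h and that expression changes then are mainly independent of it. DNA damage was not measured here.

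The 250 bases before the transcription start show which members carry a match to the p53 half-site consensus close to the gene, and which do not. RefSeq promoters of GRCm38.p6 were found for 7 of the 8 genes. *Trp53inp1* was the gene without one. On the mouse genome *Cdkn1a* lies at chr17:29090976-29100727 on the plus strand and *Mdm2* at chr10:117688875-117710758 on the minus strand, *Gadd45b* at chr10:80930073-80932204 on the plus strand and *Ccng1* at chr11:40748552-40755311 on the minus strand. The other members lie at chr6:67035096-67037457 (*Gadd45a*, minus), chr13:51846678-51848468 (*Gadd45g*, plus), chr4:11156431-11174379 (*Trp53inp1*, plus) and chr4:132492032-132510501 (*Sesn2*, minus). The windows of the 3 members with the classical cell cycle and feedback roles, and of *Gadd45b* as the member whose level differed most, are printed 5′ to 3′ on the gene's strand, with matches to the p53 half-site in capitals. They span chr17:29090729-29090978, chr10:117710759-117711008, chr11:40755287-40755536 and chr10:80929841-80930090.
Cdkn1a: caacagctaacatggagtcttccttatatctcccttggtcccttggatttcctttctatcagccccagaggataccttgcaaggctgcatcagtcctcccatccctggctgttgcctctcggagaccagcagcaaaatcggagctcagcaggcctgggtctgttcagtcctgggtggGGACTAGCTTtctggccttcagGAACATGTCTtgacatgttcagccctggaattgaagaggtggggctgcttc
Mdm2: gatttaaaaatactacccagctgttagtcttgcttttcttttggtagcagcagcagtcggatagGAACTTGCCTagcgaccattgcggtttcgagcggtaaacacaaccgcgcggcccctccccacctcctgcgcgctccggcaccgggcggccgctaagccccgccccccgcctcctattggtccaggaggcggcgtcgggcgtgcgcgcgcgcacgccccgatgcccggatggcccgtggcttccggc
Ccng1: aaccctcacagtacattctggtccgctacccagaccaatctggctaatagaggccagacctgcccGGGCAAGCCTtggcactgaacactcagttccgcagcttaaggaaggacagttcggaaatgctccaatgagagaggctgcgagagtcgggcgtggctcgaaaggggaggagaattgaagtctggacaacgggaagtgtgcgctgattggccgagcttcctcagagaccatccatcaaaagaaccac
Gadd45b: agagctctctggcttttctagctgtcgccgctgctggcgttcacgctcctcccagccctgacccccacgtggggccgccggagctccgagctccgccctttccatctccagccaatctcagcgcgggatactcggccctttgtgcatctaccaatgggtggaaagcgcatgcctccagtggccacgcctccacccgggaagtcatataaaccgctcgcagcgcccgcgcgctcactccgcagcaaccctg
The first *Cdkn1a* start had half-sites beginning 73 and 51 bases before the start (GGACTAGCTT and GAACATGTCT), while the window before its second start had none. *Mdm2* had one at 186 bases (GAACTTGCCT), *Ccng1* at 185 bases (GGGCAAGCCT) and *Gadd45a* at 40 bases (GGGCTAGCCC). *Gadd45b*, *Gadd45g* and *Sesn2* had no match. Half-sites were searched on both strands, and 7.13% of 32851 windows of this length before annotated starts held at least 1. None of the matched members had a match to the NF-κB consensus, which 7.25% of all windows held, and *Gadd45b* and *Gadd45g* were the members with the letters TATAAA, which 12.4% held. A match describes letters and says nothing about binding in these cells, and no match describes only this window.

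In β-cells every member was higher in the IL-1β library than in the untreated library, and the sum of the 8 genes was 245 CPM untreated, 588 CPM after IL-1β, 347 CPM after IFN-γ and 623 CPM with both. Of the 8, 5 were called higher after IL-1β (*Cdkn1a*, *Gadd45a*, *Gadd45b*, *Gadd45g*, *Ccng1*), where 14.8% of all 9220 genes tested were. With IFN-γ the call was *Trp53inp1* alone, 1 of 8 where 3.74% of all genes were called higher. With both cytokines 3 of 8 were called higher (*Cdkn1a*, *Gadd45b*, *Gadd45g*), where 9.76% of all genes were, and no member was called lower in β-cells, where 2.9%, 0.0759% and 6.46% of all genes were. The members' median log2 ratio was 1.17 after IL-1β, 0.51 after IFN-γ and 0.84 with both, beside medians over all genes of 0.39, 0.31 and 0.07.

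Part of these differences moved with the hormone content of the libraries. Hormone transcripts made up 42.2% of β-cell UMIs untreated, 21.9% after IL-1β, 28.3% after IFN-γ and 33.5% with both, so the same number of other transcripts gives a larger share where hormone is lower. With the hormone genes left out of the total, *Gadd45b* was the 1 member called higher after IL-1β (background 6.6%), none was after IFN-γ, and with both cytokines the same 3 were called (background 7.93%). On that scale *Cdkn1a* was 1.92-fold, *Gadd45a* 1.88-fold, *Gadd45g* 1.75-fold and *Ccng1* 1.62-fold the untreated value after IL-1β, all still above 1. The part of hormone content in the differences was otherwise not tested. Genes on the marker lists of other cells also differed between the β-cells of the 4 libraries. The 10 ductal markers summed to 420, 588, 444 and 582 CPM, with *Krt7* or *Krt18* the most abundant and 2, 1, 1 and 2 at 0, and so were highest where IL-1β was given. The 10 macrophage markers summed to 74.2, 51.0, 48.3 and 148 CPM, with 0, 2, 1 and 0 at 0. Most of that sum was *C1qa*, at 69.0, 35.7, 39.7 and 135 CPM, so it is not read as macrophage RNA. The 10 acinar markers were highest untreated, at 50.4, 19.0, 41.8 and 14.9 CPM, with *Ctrb1* the most abundant and none at 0. The part of these transcripts in the members' levels was not tested.

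**Figure D1:**
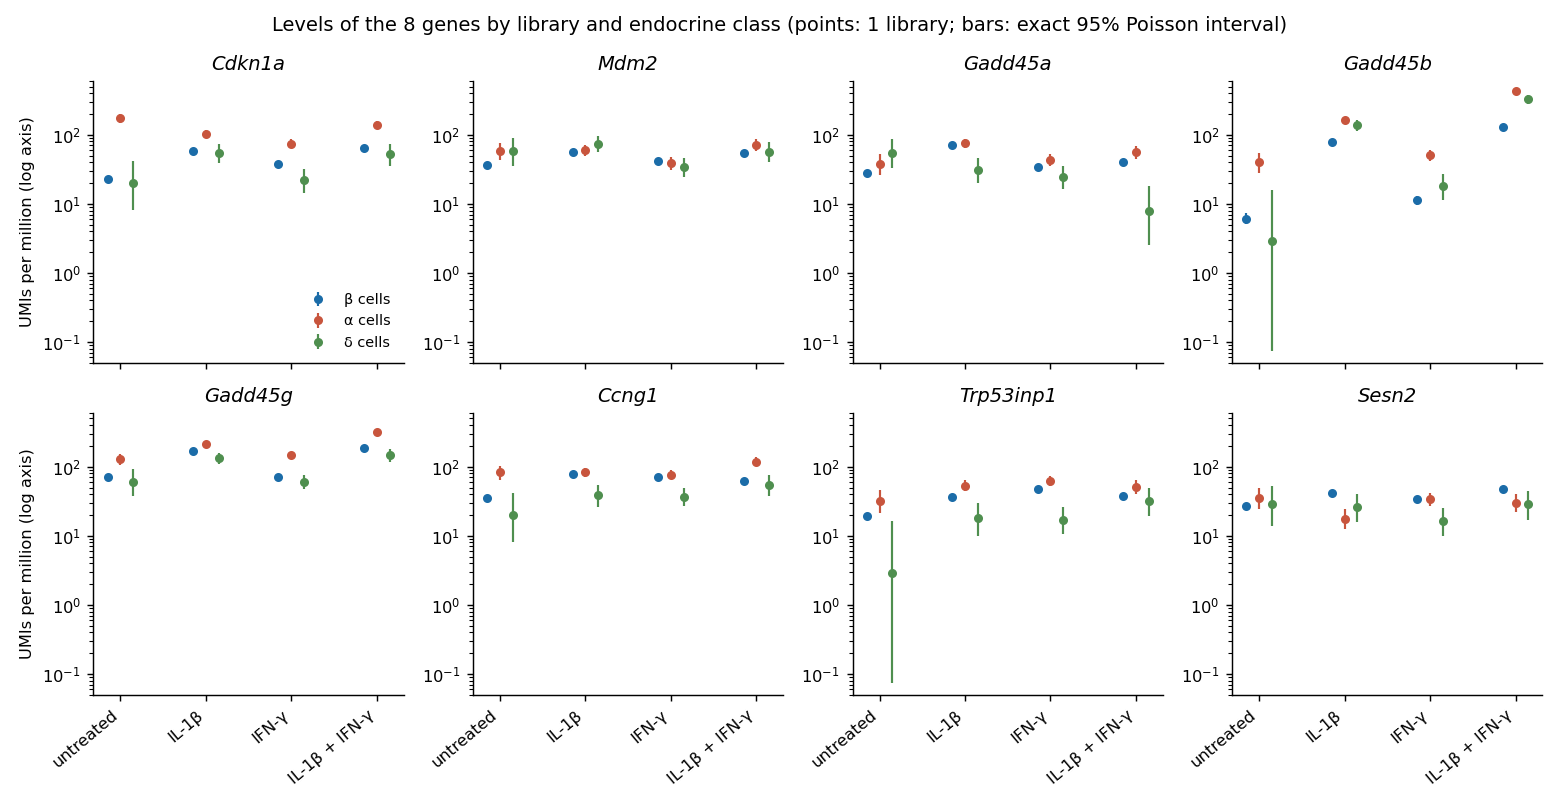
Level of each of the 8 genes in UMIs per 1000000 (log axis) in the 4 libraries, for β-cells (blue), α-cells (red) and δ-cells (green), with bars for exact 95% Poisson intervals. In β-cells Gadd45b spans 6.10 CPM untreated to 128 CPM with both cytokines, and Cdkn1a is highest untreated in α-cells (172 CPM) but lowest untreated in β-cells (22.7 CPM).

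*Cdkn1a*, the p21 gene, was at 22.7 CPM [20.7 to 24.9] in untreated β-cells, 59.0 CPM [54.3 to 64.0] after IL-1β, 37.6 CPM [34.5 to 40.9] after IFN-γ and 64.1 CPM [60.2 to 68.2] with both. The order of the libraries was thus untreated, IFN-γ, then IL-1β and both, and the intervals of the last pair overlapped. Relative to untreated, this was 2.60-fold [2.30 to 2.94], 1.66-fold [1.46 to 1.88] and 2.82-fold [2.52 to 3.16]. The transcript was unevenly spread, with up to 26 UMIs in 1 doubly treated cell, and without that cell the level was 62.5 CPM. After each cell was thinned to 4000 UMIs so that all had the same total, *Cdkn1a* was detected in 9.26% of untreated, 16.6% of IL-1β-treated, 10.8% of IFN-γ-treated and 18.5% of doubly treated β-cells. Thinning left out 48, 82, 65 and 33 shallower β-cells in that order, and the unthinned shares were 19.9%, 27.9%, 20.2% and 33.6%. Hormone UMIs count toward the thinned total, so the number of other UMIs still differed between the libraries.

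*Mdm2*, the feedback inhibitor of p53, differed less. It was at 35.9 CPM untreated, 56.7 CPM after IL-1β, 41.9 CPM after IFN-γ and 54.5 CPM with both, and none of the 3 ratios (1.58, 1.17 and 1.52) reached the 2-fold limit. *Ccng1* was at 35.8 CPM untreated, 78.3 CPM after IL-1β, 70.0 CPM after IFN-γ and 62.5 CPM with both. It was above the untreated level in all 3 cytokine libraries, at 2.19-fold [1.98 to 2.43], 1.96-fold [1.78 to 2.16] and 1.75-fold [1.58 to 1.93], and the first alone was past the limit. Its thinned share was 14.1% of untreated and between 22.0% and 24.3% of treated β-cells.

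The Gadd45 family separated by member. *Gadd45b* was at 6.10 CPM [5.07 to 7.29] untreated, 79.0 CPM [73.6 to 84.7] after IL-1β, 11.3 CPM [9.60 to 13.1] after IFN-γ and 128 CPM [123 to 134] with both. Both libraries that received IL-1β were far above the others, at 12.9-fold [10.7 to 15.8] and 21.0-fold [17.5 to 25.4] the untreated level, and with both cytokines *Gadd45b* was 1.62-fold [1.5 to 1.77] its level after IL-1β alone. These changes ranked at the 99.3rd and 99.2nd percentile of all genes tested. Thinned shares were 1.92% untreated, 23.6% after IL-1β, 4.45% after IFN-γ and 34.4% with both (unthinned 6.71%, 40.1%, 9.52% and 61.6%). Free RNA in droplets can give a low share in any cell, and endothelial cells, where *Gadd45b* stayed low in all 4 libraries, had a UMI in 8.33%, 6.67%, 10.5% and 7.14% of 24, 30, 38 and 14 cells. Their median depths were 5328.5, 3480, 3926.5 and 8591 UMIs, against 17053, 8225, 10891.5 and 12177 UMIs in β-cells. The unthinned β-cell shares of the untreated and IFN-γ libraries were not above these. The endothelial cells were few, and their *Gadd45b* level was above that of untreated β-cells. They may express the gene themselves, so their shares do not measure free RNA. Detection in single β-cells of those libraries was thus not told apart from background and is not read as expression.

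*Gadd45g* was at 70.2 CPM untreated, 167 CPM after IL-1β, 71.0 CPM after IFN-γ and 189 CPM with both, and so followed the same IL-1β pattern from a well-detected untreated level. Its ratios were 2.37 [2.21 to 2.55] after IL-1β and 2.70 [2.53 to 2.88] with both, while after IFN-γ it was 1.01-fold, or 0.815-fold with hormone genes left out. *Gadd45a* went its own way, at 27.9 CPM untreated, 70.9 CPM after IL-1β, 34.3 CPM after IFN-γ and 39.9 CPM with both. It was highest after IL-1β alone, at 2.55-fold [2.27 to 2.85] the untreated level, and the doubly treated level was 0.563-fold [0.505 to 0.628] that after IL-1β, which did not reach the limit for a call. The median log2 ratio of all genes there was itself -0.31, and *Gadd45a* lay at the 9.06th percentile. With hormone genes left out of the total, its levels were 90.7 CPM after IL-1β and 60.1 CPM with both. No member was called in that comparison, where 1.75% of all genes were called higher and 3.71% lower. Against IFN-γ alone, *Gadd45b* (11.4-fold) and *Gadd45g* (2.67-fold) were called higher with both cytokines, 2 of 8 beside 4.43% of all genes.

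*Trp53inp1* was the member that was highest after IFN-γ, at 19.6 CPM untreated, 36.6 CPM after IL-1β, 47.2 CPM after IFN-γ and 37.5 CPM with both. The IFN-γ library was 2.41-fold [2.12 to 2.73] the untreated library, at the 97.7th percentile of all genes, and 1.94-fold with hormone genes left out. *Sesn2* had no call, at 26.9, 41.1, 33.5 and 47.2 CPM (untreated, IL-1β, IFN-γ and both). Relative to the median of all genes, *Mdm2*, *Gadd45a* and *Gadd45g* were below it after IFN-γ, at log2 values of -0.09, -0.02 and -0.30, and all 3 also turned below 1-fold with hormone genes left out (0.942-fold, 0.992-fold and 0.815-fold). *Sesn2* lay at the median, at the 49.5th percentile of all genes, and was 1.005-fold with hormone genes left out.

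**Figure D2:**
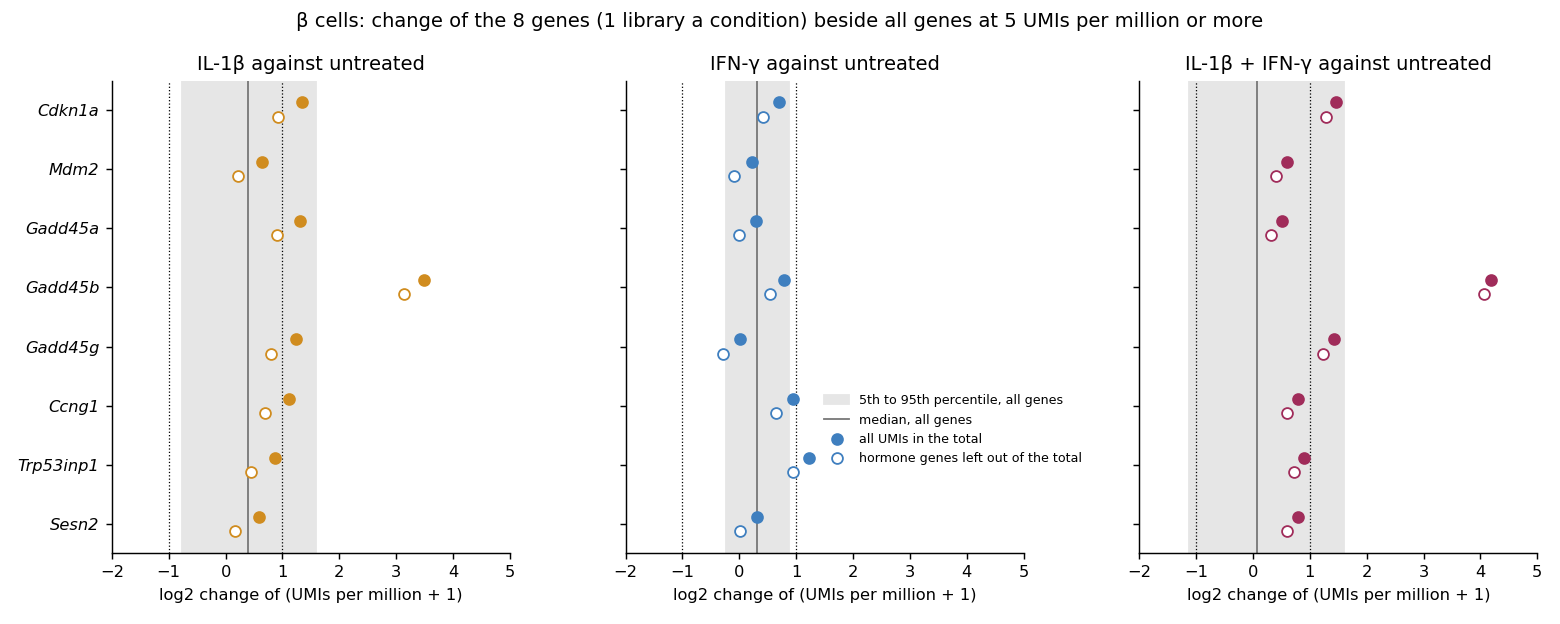
Log2 ratio of each cytokine library to the untreated library in β-cells for the 8 genes, with all UMIs in the total (filled) or hormone genes left out (open), beside the median (line) and the range from the 5th to the 95th percentile (gray) of all 9220 genes tested, with dotted lines at the 2-fold limit. Gadd45b lies at 3.49 after IL-1β and 4.19 with both cytokines, and Trp53inp1 at 1.23 is the member past a log2 ratio of 1 after IFN-γ.

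More of the members were detected per cell in the cytokine libraries. A thinned β-cell had a UMI of 0.900 members on average untreated, 1.76 after IL-1β, 1.2 after IFN-γ and 1.81 with both. No member was detected in 40.4% of untreated, 13.8% of IL-1β-treated, 29.5% of IFN-γ-treated and 13.8% of doubly treated β-cells. Hormone UMIs, at 42.2%, 21.9%, 28.3% and 33.5% of β-cell UMIs, count toward the thinned total here too. Their part in these means was not tested.

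Which members share cells was examined by dividing the thinned β-cells of each library into those with and without a *Cdkn1a* UMI (106 and 1039 untreated, 183 and 922 after IL-1β, 136 and 1123 after IFN-γ, 231 and 1020 with both). *Ccng1* was found in 25.5% of cells with *Cdkn1a* and 12.9% of cells without it untreated, in 41.5% and 20.9% after IL-1β, in 41.2% and 21.7% after IFN-γ, and in 44.2% and 17.0% with both. A *Ccng1* UMI was thus more frequent among β-cells with a *Cdkn1a* UMI in each of the 4 libraries. Free RNA adds to such shares. For *Cdkn1a* no class lacked the gene, and the thinned δ-cell shares (8.33%, 20.7%, 8.61% and 18.1%) were close to those of β-cells. For *Ccng1* thinned endothelial cells had a UMI in 4.55% of 22, 7.69% of 13, 22.2% of 18 and 0 of 11 cells, and the β-cell share of the IFN-γ library (23.8%) was near theirs. Endothelial cells may express the gene themselves, so their shares do not measure free RNA. A β-cell with a UMI is therefore not read as one that expresses the gene, and the part of free RNA in the co-detection was not tested. Among genes in at least 10% of the thinned β-cells of a library, its difference in share ranked 60 of 3652 untreated, 1 of 4567 after IL-1β, 4 of 4444 after IFN-γ and 1 of 4054 with both. The median difference over those genes was 1.76, 1.17, 1.75 and 2.17 percentage points, so most genes were found slightly more often in cells with a *Cdkn1a* UMI.

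The other feedback gene, *Mdm2*, followed at smaller size, in 18.9% against 12%, 30.1% against 18.8%, 20.6% against 16.1% and 31.6% against 17.2% of cells with and without *Cdkn1a*. *Gadd45b* did not follow in the IL-1β libraries, where it was in 21.3% of IL-1β-treated cells with *Cdkn1a* and 24.1% without it, and in 31.2% and 35.1% with both cytokines. *Gadd45a* was in 24.0% against 20.4% after IL-1β and 16.0% against 13.9% with both, and *Gadd45g* in 45.4% against 42.2% and 40.3% against 42.8%. Averaged over the 4 libraries with equal weight, *Ccng1* had the greatest difference of 3145 genes (19.95 points), *Bax*, the proapoptotic channel former, came next (16.9 points), and *Rps27l*, a p53 target related to a ribosomal protein, was the 10th (10.7 points) and *Mdm2* the 26th (9.26 points). *Ero1l*, *Bnip3*, *Ddit3*, *Mthfd2*, *Rala*, *Tpi1* and *Gpi1* stood between *Bax* and *Rps27l*, and like those were named after their values were seen. *Sesn2* was the 1406th and *Gadd45g* the 2706th (-0.42 points). In the untreated library alone the greatest differences were those of *Bnip3*, *Atf5*, *Meis2*, *Ero1l* and *Fam210b*, while *Ccng1* ranked 60.

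Cells with *Cdkn1a* also had less insulin transcript, with a median insulin share of 34.8% of UMIs against 42.2% untreated, 18.2% against 21.1% after IL-1β, 21.0% against 28.1% after IFN-γ and 27.1% against 33.2% with both. When each library was divided at its median insulin share, a split chosen after seeing the data, *Ccng1* remained more frequent with *Cdkn1a* in both parts of all 4 libraries. In the part with more insulin it was in 23.3% against 11.4% of untreated cells, 28.4% against 13.6% after IL-1β, 41.0% against 18.4% after IFN-γ and 34.6% against 12.6% with both. For *Mdm2* this held in the part with less insulin in all 4 libraries. In the part with more insulin it held after IL-1β (18.9% against 16.7%) and with both (26.9% against 17.0%). It did not hold there untreated (10.0% against 10.1%) or after IFN-γ (10.3% against 13.2%). In thinned α-cells *Ccng1* was again more frequent with *Cdkn1a*, in 29.2% against 15.8% untreated, 42.4% against 19.9% after IL-1β, 44.4% against 47 of 235 cells after IFN-γ and 57.4% against 21.7% with both, over 24 to 66 cells with *Cdkn1a*. Cells of a library are not replicates, so these shares describe the libraries and were not tested.

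**Figure D3:**
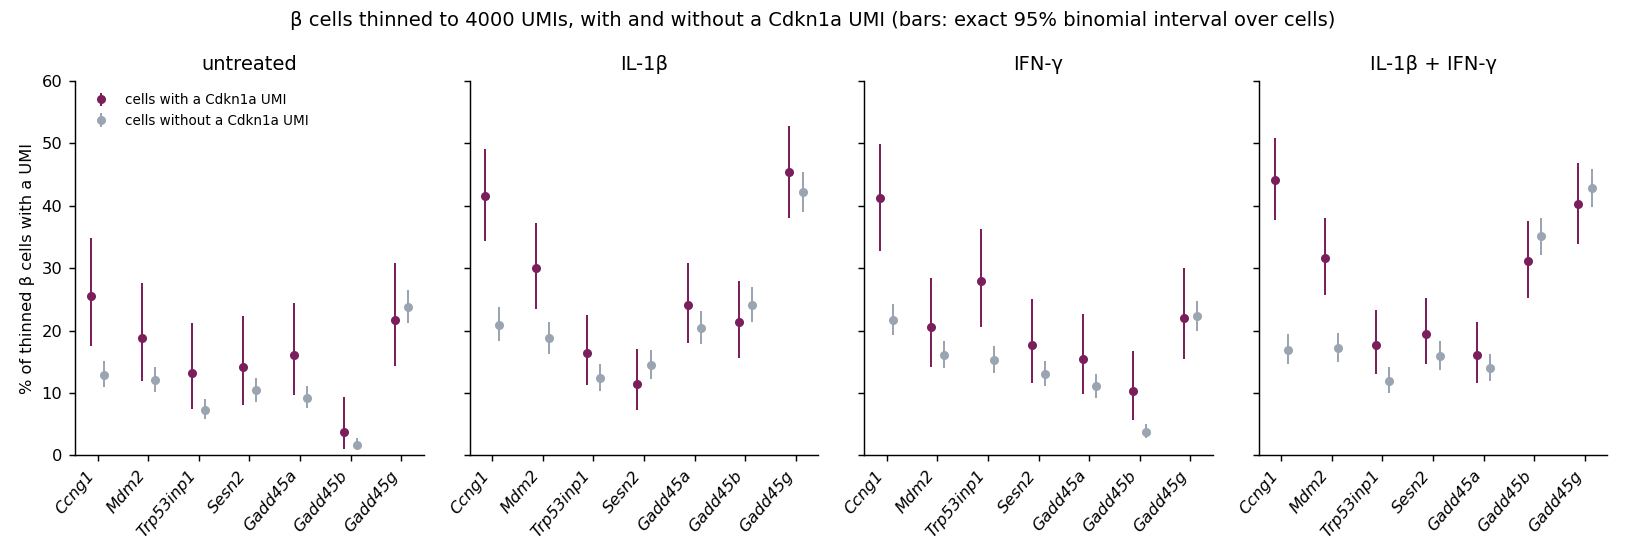
Share of thinned β-cells with a UMI of the other members, among cells with and without a Cdkn1a UMI in each library, in percent with exact 95% binomial intervals. Ccng1 is more frequent in cells with Cdkn1a in all 4 libraries, from 25.5% against 12.9% untreated to 44.2% against 17.0% with both cytokines, whereas the intervals of Gadd45g overlap in all 4.

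Further markers divided the thinned β-cells in other ways. *Nfkbia*, the NF-κB inhibitor, went with *Gadd45b*, which was found in 38.8% [35.7 to 42.0] of cells with and 21.8% [17.4 to 26.7] of cells without an *Nfkbia* UMI in the library with both cytokines, and in 26.1% and 17.8% after IL-1β. *Ddit3*, a transcription factor of endoplasmic reticulum stress, went with *Trp53inp1*, found in 12.8% of cells with and 6.85% of cells without it untreated, 19.8% and 8.11% after IL-1β, 23.4% and 13% after IFN-γ, and 15.6% and 9.97% with both. *Sesn2* also was more frequent with *Ddit3*, most with both cytokines (21.5% against 10.7%). *Nos2*, the inducible nitric oxide synthase, went with fewer cells of the p53 feedback genes. In the library with both cytokines *Mdm2* was in 16.8% [14.2 to 19.7] of 756 cells with and 24.4% [20.7 to 28.5] of 495 cells without a *Nos2* UMI, and *Ccng1* in 19.7% and 25.5%. With IL-1β alone *Mdm2* was in 16.6% and 21.8% and *Ccng1* in 20.9% and 25.4% of 253 and 852 cells. For these divisions no rank or median over all genes is given, so the differences are not read as particular to the genes named.

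α-Cells had another *Cdkn1a* pattern. *Cdkn1a* was at 172 CPM [146 to 202] in untreated α-cells, 104 CPM [90.9 to 118] after IL-1β, 74.3 CPM [63.7 to 86.1] after IFN-γ and 137 CPM [119 to 158] with both, and so was highest untreated, where β-cells were lowest. The ratios to untreated were 0.603 [0.490 to 0.744], 0.431 [0.345 to 0.538] and 0.798 [0.644 to 0.989]. With IFN-γ this was the 1 member called lower, where 1.78% of 9690 genes were, and no member was called lower after IL-1β (9.09% of genes) or with both (14%). The untreated value rested on 88 cells, 156 UMIs and at most 14 UMIs in a cell. When α-cells had to have a purer glucagon signal, 17 untreated cells were left and the log2 ratios after IL-1β and with both turned above 0, to 0.18 and 0.53, and with α-cells defined by clustering the IFN-γ log2 ratio was -0.70, no longer a call. Over all settings the IFN-γ log2 ratio was below 0, between -1.37 and -0.32. Insulin and several marker lists of other cells were also highest in the untreated α-cells. The 10 ductal markers were not (2767, 9743, 3672 and 5114 CPM, 5, 2, 5 and 2 at 0). Most of that sum was *Spp1*, at 2345, 9134, 3268 and 4406 CPM, so it is not read as ductal RNA. The median insulin share was 0.516% of UMIs, against 0.0920% after IL-1β, 0.209% after IFN-γ and 0.102% with both. The 8 β-cell markers together summed to 7784, 6628, 4573 and 6327 CPM, with *Ins2* the most abundant untreated and *Iapp* in the other libraries, and with 0, 1, 0 and 1 at 0. The 10 acinar markers summed to 101, 20.9, 64.9 and 25.6 CPM (*Ctrb1* the most abundant, 0, 1, 1 and 3 at 0), and so were highest untreated like *Cdkn1a*. The 10 macrophage markers summed to 51.9, 16.8, 25.9 and 49.8 CPM (*C1qa* the most abundant in each, 5, 6, 6 and 6 at 0). The 10 endothelial markers summed to 14.4, 7.26, 9.76 and 6.74 CPM (*Esam* the most abundant in the first 3 libraries and *Pecam1* with both, 6, 4, 7 and 8 at 0). The part of these transcripts in the α-cell levels was not tested.

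The IL-1β pattern of *Gadd45b* in β-cells was also seen in α-cells, and that of *Gadd45g* in part. *Gadd45b* was at 39.8 CPM untreated, 161 CPM after IL-1β, 50.5 CPM after IFN-γ and 424 CPM with both, or 4.05-fold [2.87 to 5.88], 1.27-fold [0.868 to 1.90] and 10.7-fold [7.63 to 15.4]. A single untreated cell held 18 of the 36 UMIs, and without it, a setting chosen after seeing the data, the untreated level was 19.9 CPM, which gave 8.10-fold, 2.54-fold and 21.3-fold, with IFN-γ then called too. In cells thinned to 4000 UMIs the IFN-γ log2 ratio was -0.25 instead of 0.34. *Gadd45g* was at 128, 211, 146 and 322 CPM, and 2.51-fold [2.05 to 3.11] the untreated level with both cytokines. After IL-1β alone it was 1.65-fold [1.34 to 2.04], without a call. *Gadd45b* was thus the 1 member called higher after IL-1β (7.8% of all genes), *Gadd45b* and *Gadd45g* the 2 with both (8.91%), and none was after IFN-γ (5.61%).

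The remaining members varied less in α-cells. *Gadd45a* was at 37.6, 75.8, 43.7 and 55.9 CPM, just under the limit after IL-1β (log2 ratio 0.99). Without the untreated cell with the most UMIs of the gene, again chosen after seeing the data, it was 2.21-fold after IL-1β, a call. In the same setting *Trp53inp1* was 2.19-fold after IFN-γ, also a call. *Mdm2* was at 57.4, 59.5, 38.6 and 70.7 CPM, *Ccng1* at 82.8, 83.5, 76.8 and 119 CPM, and *Trp53inp1* at 32.0, 53.1, 62.8 and 50.5 CPM, again highest after IFN-γ but with overlapping intervals between the treated libraries. *Sesn2* was lowest after IL-1β, at 17.7 CPM against 35.3 CPM untreated, 34.0 CPM after IFN-γ and 30.3 CPM with both, and its IL-1β ratio was 0.501 [0.306 to 0.826] without a call, or 0.471 with hormone genes left out of the total, where it was called lower. The median log2 ratio over all genes in α-cells was -0.07, 0.09 and -0.17, and over the members 0.38, 0.06 and 0.54.

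δ-Cells were few, with 37 untreated, 150 IL-1β-treated, 168 IFN-γ-treated and 96 doubly treated cells, and their intervals were wide. *Gadd45b* was at 2.89 CPM untreated (1 UMI), 136 CPM [112 to 165] after IL-1β, 18.0 CPM [11.3 to 27.3] after IFN-γ and 327 CPM [284 to 374] with both. The IL-1β libraries were again the high ones, 47.1-fold [8.28 to 1879] and 113-fold [20.1 to 4484] over the single untreated UMI. In thinned cells it was found in 0 of 36 untreated and 55.4% of doubly treated δ-cells. *Cdkn1a* was at 20.2, 54.0, 22.1 and 52.1 CPM, which gave 2.67-fold [1.19 to 7.04] after IL-1β and 2.57-fold [1.12 to 6.89] with both. The untreated value rested on 7 UMIs, and both calls ended when δ-cells were defined by clustering (log2 ratios 0.36 and 0.48 in place of 1.37 and 1.32) or by their leading hormone alone (0.48 and 0.27).

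*Gadd45a* was called lower in δ-cells after IFN-γ and with both cytokines, at 54.9 CPM [33.1 to 85.8] untreated, 30.9 CPM after IL-1β, 24.6 CPM after IFN-γ and 7.89 CPM [2.56 to 18.4] with both. These were 19, 24, 30 and 5 UMIs, the ratio with both was 0.144 [0.0419 to 0.398], and 7 of the untreated UMIs lay in 1 cell, without which the untreated level was 34.7 CPM, the ratio with both 0.227 and that after IFN-γ 0.708, no longer a call. After thinning to 4000 UMIs the IFN-γ log2 ratio was -0.82, also no call. *Gadd45g* was at 60.7, 132, 60.6 and 147 CPM, close to its β-cell pattern, and *Trp53inp1* at 2.89 (1 UMI), 18.0, 17.2 and 31.6 CPM. Under the processing alternatives *Gadd45g* fell to log2 ratios of 0.76 after IL-1β and 0.86 with both, below the limit for a call. *Trp53inp1* fell to 0.98 after IL-1β and 0.84 after IFN-γ, also no call, and stayed at 1.25 or more with both. *Ccng1* was at 20.2, 38.6, 36.8 and 53.6 CPM, *Mdm2* at 57.8, 73.3, 33.6 and 56.8 CPM and *Sesn2* at 28.9, 25.7, 16.4 and 28.4 CPM. The *Ccng1* log2 ratio with both fell to 0.98 under an alternative, no longer a call. Without the untreated cell with the most *Ccng1* UMIs, chosen after seeing the data, it was 2.67-fold after IL-1β and 2.55-fold after IFN-γ, both then called. Calls were 4 higher and 0 lower after IL-1β (background 13.4% and 12.3%), 2 higher and 1 lower after IFN-γ (9.19% and 6.02%), and 5 higher and 1 lower with both (13.9% and 21.2%). Genes on the marker lists of other cells moved here too. A sum that rests mostly on its most abundant gene is not read as RNA of that cell type. The 8 β-cell markers summed to 37950, 46637, 31031 and 30535 CPM in δ-cells. *Iapp* was the most abundant, at 33018, 45420, 28920 and 29191 CPM, and 1, 3, 0 and 1 were at 0. Insulin was instead highest in untreated δ-cells, at a median share of 0.4697% of UMIs. It was 0.1102% after IL-1β, 0.2012% after IFN-γ and 0.1287% with both. *Ins2* was at 3611 CPM untreated, 915 CPM after IL-1β and 1560 CPM after IFN-γ. Median *Ppy* shares were 3.152% untreated, 1.714% after IL-1β, 1.895% after IFN-γ and 1.898% with both. For the 10 acinar markers the sums were 468, 267, 298 and 259 CPM. *Cela1* was the most abundant of them, at 379, 243, 248 and 238 CPM, and 2, 0, 2 and 2 were at 0. The 10 macrophage markers summed to 107, 32.1, 69.6 and 97.8 CPM, with 7, 7, 5 and 5 at 0. *C1qa* was the most abundant, at 92.5, 16.7, 63.0 and 78.9 CPM. The 10 ductal markers summed to 1498, 3303, 1722 and 2674 CPM, with *Clu* the most abundant and 4, 5, 5 and 2 at 0, and so were highest in the libraries treated with IL-1β. Their part in the δ-cell levels was not tested.

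Across all 9 classes *Cdkn1a* was highest in endothelial cells in 3 of the 4 libraries, at 855 CPM [712 to 1018] untreated, 798 CPM after IL-1β and 1067 CPM after IFN-γ, while with both cytokines mesenchymal cells (793 CPM) were above them (703 CPM). The next classes in the untreated library were acinar (355 CPM), mesenchymal (354 CPM) and macrophage (249 CPM [195 to 313]), whose intervals overlapped, then α-cells (172 CPM) and ductal cells (138 CPM [71.2 to 241]), and last PP, β- and δ-cells (39.6, 22.7 and 20.2 CPM). Mesenchymal cells varied most between libraries, at 130, 82.5 and 793 CPM in the 3 cytokine libraries on 24, 22 and 13 cells. *Cdkn1a* in macrophages was 210, 127 and 96.3 CPM after IL-1β, IFN-γ and both.

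The other members marked different classes. *Mdm2* was highest in macrophages, at 112, 120, 146 and 108 CPM in the 4 libraries, with mesenchymal cells next in the untreated library (105 CPM) and overlapping intervals. *Gadd45a* was highest in ductal cells in 3 libraries, at 333 CPM [223 to 478] untreated, 178 CPM after IL-1β and 246 CPM after IFN-γ, but rested on 3 UMIs with both. *Gadd45b* was already high untreated in ductal (287 CPM [186 to 424]) and mesenchymal cells (278 CPM [186 to 399]), where it was 131 and 99.1 CPM after IL-1β, on 12 and 24 cells. Higher *Gadd45b* after IL-1β, as in the endocrine classes, was therefore not seen in these few ductal and mesenchymal cells. PP cells, with 21, 25, 52 and 43 cells in the 4 libraries, had *Gadd45b* at 36.3, 101, 82.7 and 266 CPM and *Gadd45g* at 36.3, 195, 180 and 190 CPM. *Gadd45g* was thus high in their IFN-γ library too, where β-cells were at 1.01-fold the untreated level. *Ccng1* and *Trp53inp1* were both highest in acinar cells after IL-1β, at 423 CPM [289 to 597] and 291 CPM [182 to 440] over 14 cells. *Sesn2* was low in macrophages, at 2, 1, 1 and 0 UMIs, where the 0 of 27 doubly treated cells allows up to 11.6 CPM.

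**Figure D4:**
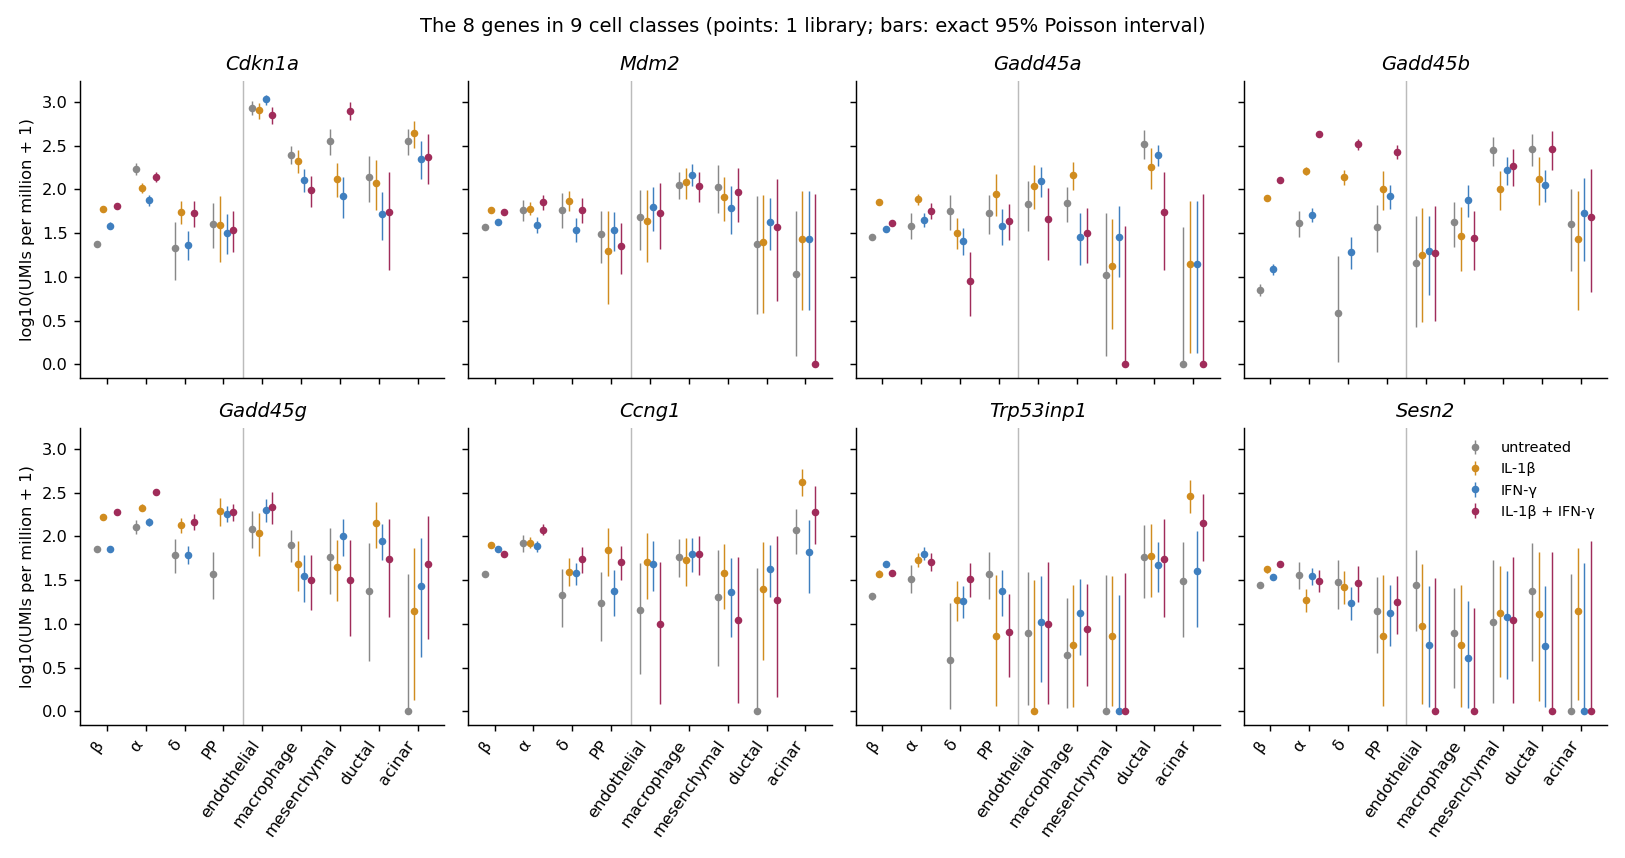
Level of the 8 genes in 9 cell classes as log10 of UMIs per 1000000 plus 1, each point 1 library with its exact 95% Poisson interval, and endocrine classes to the left of the gray line. Cdkn1a is highest in endothelial cells in all libraries but that with both cytokines (703 CPM against 793 CPM in mesenchymal cells), and Gadd45b in the endocrine classes is highest with both cytokines while endothelial cells stay between 13.6 and 19.0 CPM.

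Other genes of the pathway were called in a few places in β-cells. Of 14 further p53 targets of cell cycle arrest and DNA repair, 11 passed the minimum level and 1 was called higher after IL-1β, none in either direction after IFN-γ, and 1 lower with both, counts near the shares of all genes called higher after IL-1β (14.8%) and lower with both (6.46%). These were *Rps27l*, at 190 CPM untreated and 387 CPM after IL-1β (2.04-fold [1.95 to 2.13]), and *Sesn1*, a sestrin, at 8.90 CPM untreated and 3.56 CPM with both (0.400-fold [0.291 to 0.543]). Of 16 apoptosis targets 9 passed, and 3 were called higher after IL-1β, 0 after IFN-γ and 3 with both (14.8%, 3.74% and 9.76% of all genes). The same genes were called after IL-1β and with both. They were *Fas*, the death receptor, at 0.1 CPM untreated (2 UMIs), 35.5 CPM after IL-1β and 42.6 CPM with both (355-fold [97.5 to 2942] and 426-fold [117 to 3524]), *Apaf1*, the apoptosome scaffold, at 2, 8.40 and 11.4 CPM (4.20-fold and 5.69-fold), and *Aen*, a p53-induced nuclease, at 11.8, 34.6 and 42.7 CPM (2.93-fold and 3.62-fold). With hormone genes left out of the total, which for these lists was chosen after seeing the data, *Rps27l* was 1.51-fold after IL-1β and no longer called, while *Sesn1*, *Fas*, *Apaf1* and *Aen* kept these calls. On that scale 12 apoptosis targets passed the minimum level, with 3 higher and 1 lower after IL-1β, 1 higher after IFN-γ, and 5 higher and 1 lower with both. Of all 9910 genes on that scale, 6.6%, 2.28% and 7.93% were called higher and 8.28%, 0.565% and 11.1% lower, in the same order. The calls gained, in genes named after their values were seen, were *Fdxr*, ferredoxin reductase, lower after IL-1β (0.373-fold) and with both (0.444-fold), *Fas* higher after IFN-γ, and *Phlda3* (2.99-fold) and *Gdf15* (2.34-fold) higher with both. *Bax* was at 115, 116, 121 and 119 CPM in the 4 libraries.

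Of 18 DNA damage sensors and regulators of p53, 14 passed, and 2 were called higher after IL-1β, 1 higher after IFN-γ, and 1 higher and 1 lower with both. The counts are near the shares of all genes called higher (14.8%, 3.74% and 9.76%) and, with both, lower (6.46%). *Atr*, a checkpoint kinase, was at 9.50 CPM untreated and 21.4 CPM after IL-1β (2.25-fold [1.84 to 2.75]), and *Usp7*, a deubiquitinase of Mdm2 and p53 named after its values were seen, at 38.5 and 79.1 CPM (2.06-fold). *Atm*, the kinase of the double-strand break response, was at 19.5 CPM untreated and 50.1 CPM after IFN-γ (2.57-fold [2.27 to 2.92]). With both cytokines *Trp53* itself was at 30.1 CPM against 13.7 CPM untreated (2.19-fold [1.89 to 2.56]), and *Prkdc*, the catalytic subunit of DNA-dependent protein kinase, at 2.48 CPM against 8.30 CPM (0.299-fold [0.205 to 0.426]). With hormone genes left out of the total, *Atr* (1.67-fold), *Usp7* (1.52-fold) and *Trp53* (1.91-fold) were no longer called, whereas *Atm* (2.08-fold) and *Prkdc* with both (0.26-fold) were, and *Prkdc* was called lower after IL-1β too (0.455-fold). The counts were then 0 higher and 1 lower after IL-1β, 1 higher after IFN-γ, and 0 higher and 1 lower with both, where 1 of 14 is near or below the shares of all genes called lower (8.28% and 11.1%). The median log2 ratio in β-cells was 0.33, 0.31 and -0.15 for the cell cycle and repair list and 0.89, 0.61 and 0.66 for the apoptosis list, after IL-1β, IFN-γ and both. Half-sites were found before 4 of 11 matched cell cycle and repair genes, 3 of 12 matched apoptosis genes, 1 of 13 matched sensors and regulators and 0 of 8 matched NF-κB feedback genes, beside 7.13% of all windows. A gene can have more than 1 window (32851 windows for 27025 genes), so this is not a share of genes.

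Lists of other stress responses also differed between the libraries. Of 11 NF-κB feedback genes 10 passed, and 10 were called higher after IL-1β, 3 after IFN-γ and 10 with both (14.8%, 3.74% and 9.76% of all genes), with a sum in β-cells of 129 CPM untreated, 1361 CPM after IL-1β, 187 CPM after IFN-γ and 1878 CPM with both, of which *Nfkbia* gave 483 CPM after IL-1β and 624 CPM with both. With hormone genes left out of the total, 9, 3 and 10 were called higher and *Relb* was called lower after IFN-γ (0.416-fold), beside 6.6%, 2.28% and 7.93% of all genes higher and 0.565% lower after IFN-γ. The integrated stress response genes summed to 542, 1406, 890 and 1440 CPM, heat shock genes summed to 953, 2543, 1706 and 2126 CPM, and immediate early genes, which islet dissociation can raise, to 550, 926, 823 and 859 CPM. Called higher were 7, 3 and 6 of 9, 6, 5 and 6 of 8, and 4, 3 and 5 of 11 (14.8%, 3.74% and 9.76% of all genes). None was called lower. In α-cells heat shock genes summed to 1397, 2305, 1490 and 2804 CPM and immediate early genes to 912, 1390, 1409 and 2505 CPM. In δ-cells these sums were 1362, 4078, 2375 and 5869 CPM, and 2900, 3043, 2930 and 2914 CPM. The part of these responses, or of depth, in the members' levels was not tested.

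Genes with the most similar pattern over the 12 combinations of β-, α- and δ-cells with the 4 libraries were sought among 8136 genes for the 3 members that varied most there. *Gadd45b* (SD 2.17 on the log2 scale) was nearest to *Cdcp1* (Pearson r = 0.982), *Fas* (0.975) and *Arrdc4* (0.974). *Trp53inp1* (SD 1.09) was nearest to *Mtmr9* (0.916), *Tox3* (0.910) and the member *Ccng1* (0.907). *Cdkn1a* (SD 0.99) was nearest to *Ankrd13a* (0.910), *Fgb* (0.908) and *Eif3g* (0.907). The 12 points share libraries, depth and hormone content, and the correlations are descriptions.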

How the data were processed

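The deposited matrices hold raw UMI counts per gene and barcode, made by the authors with Cell Ranger against mm10 per the labels' processing notes. The matrix headers give a software version of 3.0.0. The labels name version 2 of the reagent kit and the study's methods another version. Islets of 8 mice were pooled, which leaves 1 library per condition. The software was pandas 2.3.3, scipy 1.17.1 and numpy 2.4.6 under Python 3.11.15.

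Barcodes were kept with 200 to 4000 genes detected and no more than 12% of UMIs mitochondrial. A cell was a β-, α- or δ-cell when its leading hormone made up at least 2% of its UMIs and at least 90% of insulin, glucagon and somatostatin UMIs together, and it met no non-endocrine definition. PP cells led in *Ppy* with the other hormones under 1%. Endothelial cells needed 5, macrophages 5, mesenchymal cells 4, ductal cells 6 and acinar cells 5 detected markers. Mixed cells (421) and cells of no class (183) were left out, 183 kept cells had a leading hormone between 1% and 3%, and 337 a purity between 80% and 95%. Doublets were not removed in the main values. Scrublet in scanpy 1.11.5 marked 75 cells, which were left out in an alternative.

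Counts were summed per class and library. Ratios were taken between CPM values with exact conditional intervals, and log2 ratios after a pseudocount of 1 CPM, which understates changes of low genes. The call was a 2-fold ratio, computed over all genes with a mean of at least 5 CPM. The floor for a count of 0 was 3 UMIs. Levels of different genes are not compared, since 3′ counting may capture each with another efficiency. On simulated data with 100 genes raised 4-fold and 100 lowered 4-fold, 100 and 97 were called in the IL-1β comparison over 9216 genes, 100 and 94 with IFN-γ over 9226 genes, and 100 and 97 with both over 9215 genes, and 0 unchanged genes were called. The simulated libraries shared the same mean β-cell profile and differed otherwise by counting error only. They held no difference in hormone content, cells or libraries, so they do not give the rate of false calls in the real data.

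The 8 genes and all gene lists were chosen with earlier results of these data known. In the further lists the genes named are the up to 5 called genes with the greatest log2 ratio in each direction and condition in β-cells, and the genes of similar pattern are the 3 with the highest Pearson r for the 3 members with the largest SD, among genes with at least 10 CPM. Gene positions are from GENCODE M21 (GRCm38), promoters from RefSeq.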

Additional observations from a re-analysis of the deposited data

Results flagged for a closer look

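Some members were higher than untreated in one endocrine class and lower in another under the same cytokine. No difference between classes was tested, since each class had 1 library per condition. The *Cdkn1a* ratio with IL-1β was 0.603 in α-cells, where it was 2.60 in β-cells and 2.67 in δ-cells. With IFN-γ the *Cdkn1a* ratio was 0.431 in α-cells and 1.66 in β-cells (0.400 and 1.34 with hormone genes left out of the total). With both cytokines it was 0.798 in α-cells, 2.82 in β-cells and 2.57 in δ-cells. Under a stricter hormone share, which left 17 untreated α-cells, the α-cell log2 ratios turned above 0 with IL-1β (0.18) and with both (0.53). The opposite direction was then no longer seen for IL-1β or for both. With IFN-γ the α-cell log2 ratio stayed below 0 in every setting, at most -0.32. The *Sesn2* ratio with IL-1β was 0.501 in α-cells and 1.53 in β-cells (0.471 and 1.13 with hormone genes left out of the total). The *Mdm2* ratio with IFN-γ was 0.672 in α-cells and 1.17 in β-cells, and the latter was 0.942 with hormone genes left out of the total. *Gadd45a* differed in δ-cells, at a ratio of 0.447 with IFN-γ and 0.144 with both (0.708 and 0.227 without 1 untreated cell), where β-cells had 1.23 (0.992 with hormone genes left out) and 1.43. The untreated α- and δ-cells behind these ratios numbered 88 and 37.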

How the results depend on the processing

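Levels, calls and counts were recomputed under 12 alternatives. Of 864 log2 ratios of single members, 788 moved by less than their counting interval, 76 by more, and 0 called ones changed sign. In β-cells the counts of members called in either direction with IL-1β, IFN-γ and both (5, 1 and 3) changed when the totals were taken without hormone genes, to 1 with IL-1β and 0 with IFN-γ, where the number of α-cell members with IL-1β became 2 instead of 1 by a call of *Sesn2* as lower. Other changes in called members were in α- and δ-cells, which had few untreated cells. With no upper limit of genes, they were 2 with IL-1β in α-cells, and 2 with IL-1β and 1 with IFN-γ in δ-cells, in place of 4 and 3, while 961 δ-cell genes in all were called with IFN-γ. A mitochondrial limit of 20% and a pseudocount of 0.1 CPM each gave 2 members with IL-1β in α-cells, and means of CPM over single cells gave 3. Thinning to 4000 UMIs gave 3 with IL-1β and 2 with IFN-γ in α-cells, and 1590 α-cell and 2702 δ-cell genes with IFN-γ. A stricter hormone share (5% and 98%) left 17 untreated α-cells and 1 untreated δ-cell. It gave 4 and 2 members in α-cells and 8 and 8 in δ-cells with IL-1β and IFN-γ, and 3001 and 2477 α-cell genes and 8130, 8106 and (both) 8170 δ-cell genes. Louvain clusters gave 2 members with IL-1β and 0 with IFN-γ in α-cells, 1 member with IFN-γ in δ-cells and 990 δ-cell genes with IFN-γ. Without the minimum level the genes called with IL-1β, IFN-γ and both were 3481, 2227 and 4414 in α-cells and 4922, 3400 and 5927 in δ-cells. With a minimum of 20 CPM they were 1015, 217 and 819 in β-cells (1634, 352 and 1496 at 5 CPM), 718, 266 and 1020 in α-cells (1637, 716 and 2224) and 1140, 550 and 1674 in δ-cells (2557, 1511 and 3491). Cells without doublet calls and cells defined by the leading hormone alone changed no count by more than 1.5 times.

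No paired analysis was possible because each condition had 1 library. For the same reason the condition cannot be told apart from the library or its depth. Levels of a few CPM in δ-cells rest on single UMIs, at which folds are bounded by wide intervals.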

Other observations

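β-Cells removed for more than 12% mitochondrial UMIs numbered 507 untreated, 200 after IL-1β, 277 after IFN-γ and 113 with both, with median mitochondrial shares of 44.3%, 18.2%, 17.4% and 38.9%. *Cdkn1a* in these cells was at 12.2, 62.4, 34.5 and 25.0 CPM, where the doubly treated value was 10 UMIs with an interval of 12 to 46.0 CPM that covers the IFN-γ value. For *Gadd45b*, with 2.94, 53.8, 8.33 and 70.0 CPM, the order of libraries was that of kept β-cells. Mitochondrial UMIs are part of these totals, so levels of removed and kept cells, and of removed cells of different libraries, are not on the same base. *Trp53inp1* was at 59.5 CPM [48.4 to 72.4] in removed IFN-γ-treated cells against 47.2 CPM in kept ones. *Mdm2* in removed doubly treated cells was at 77.5 CPM [52.6 to 110] against 54.5 CPM, a ratio of 1.42 [0.96 to 2.03]. Other values were lower in removed cells. *Gadd45a* was 0.439-fold its kept level untreated, 0.713-fold after IL-1β, 0.468-fold after IFN-γ and 0.501-fold with both. Untreated *Ccng1* was 0.520-fold. No explanation of these values was tested.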
